A study of Mus musculus with 8 samples.

Results

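The matrix metalloproteinases (MMPs), the ADAMTS proteases with the related ADAMTS-like proteins, and the tissue inhibitors of metalloproteinases (TIMPs) were examined in mouse bone mesenchymal stem cells (MSCs) kept at low or high oxygen. The members were all genes of the count table whose symbol was Mmp, Timp, Adamts or Adamtsl followed by a number. The symbol pattern matched 51 genes, of which Mmp1a was dropped because the annotation types it as a polymorphic pseudogene (it had 0 counts). This left 50 of the 53465 genes in the table, namely 22 MMPs, 19 ADAMTS proteases, 5 ADAMTS-like proteins and 4 TIMPs.

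MSCs came from the hind-limb bones of wild-type male C57BL/6N mice of 3 to 5 months. Cells and bone chips were released with collagenase and expanded at 2% O2, and a CD45-, TER-119-, Sca-1+ and CD140a+ population was sorted by flow cytometry on day 12. Per the study's methods the sorted population was then divided and cultured for a further week at 2% O2 (hypoxia, 4 samples) or 21% O2 (normoxia, 4 samples). Both groups had therefore been through collagenase digestion and low-oxygen expansion, and the labels name the cells bone-marrow MSCs. RNA-seq counts per sample ranged from 12898291 to 25132141, hypoxia replicate 1 being the deepest. The marker list for MSCs was detected in full (9 of 9 genes tested). Its summed level was 2987 to 3743 CPM (counts scaled to library size) in hypoxia and 3006 to 3405 in normoxia. The sum does not show that each gene held its level. In the test given below, Cd44 and Nt5e rose by 0.72 and 0.585 and Eng fell by 0.27 on the log2 CPM scale (limma adjusted p = 0.013, 0.0024 and 0.043). With the replicate number as a block, 4 of the 9 were called higher and 4 lower, beside 46% of all genes called. The macrophage genes were also detected, 8 of 8, despite the CD45- gate.

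MMPs are zinc proteases that cut collagens and other matrix proteins outside the cell. Most are secreted as inactive proforms, and some are held at the cell membrane. ADAMTS proteases are related secreted enzymes that cut proteoglycans such as aggrecan and versican or trim procollagens, and the ADAMTS-like proteins share their matrix-binding modules without the protease. TIMPs bind the active site of MMPs and block it, and Timp3 also inhibits some ADAMTS proteases. Matrix turnover in bone and cartilage therefore depends on the levels of both sides.

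To learn which members these cells express, levels were first compared per length, as CPM divided by the exon length in kilobases (RPKM). The inhibitors stood highest. Timp1 had 1096 ± 205 RPKM in hypoxia and 1305 ± 180 in normoxia (SD, n = 4 here and at every ± below). Timp2 had 670 ± 36.5 and 758 ± 24.1 RPKM, and Timp3 had 293 ± 17.9 and 377 ± 18.4 RPKM, for hypoxia and normoxia respectively. Of the proteases, the gelatinase Mmp2 was highest on the RPKM scale with 231 ± 29.5 and 215 ± 20.9, followed by the collagenase Mmp13 with 84.0 ± 6.57 and 106 ± 18.8. The membrane protease Mmp14, which activates Mmp2 at the cell surface, had 64.2 ± 3.98 and 64.7 ± 2.03 RPKM. The order of the next members differed between the groups. In hypoxia Mmp23 stood at 58.8 ± 6.18 RPKM, above Adamtsl4 at 43.9 ± 2.63, Adamts5 at 41.1 ± 5.01 and Adamtsl3 at 39.6 ± 4.07, which lay within their spread of each other. In normoxia Mmp23 stood at 34.8 ± 5.28 RPKM, below Adamtsl4 at 44.4 ± 2.98, Adamtsl3 at 49.6 ± 1.86 and Adamts5 at 50.8 ± 3.01.

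**Figure D1:**
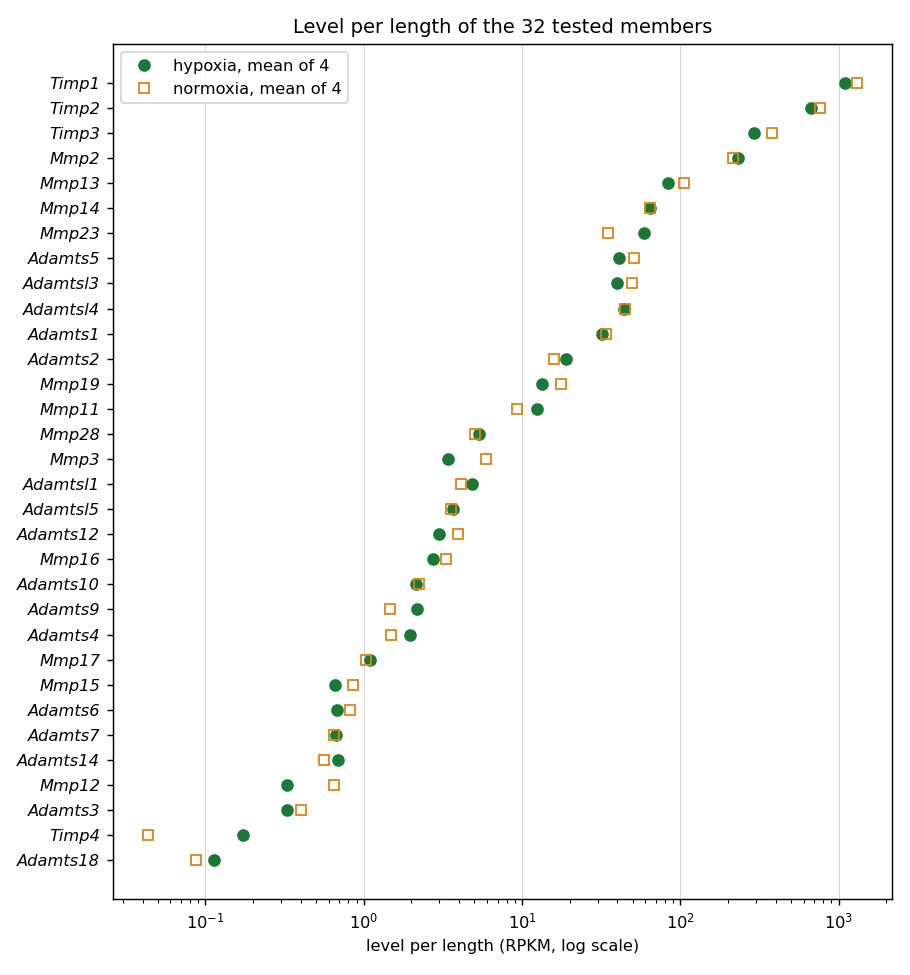
Mean level per length (x axis, RPKM, logarithmic) of the 32 members that passed the filter on low counts, 1 line per gene, with filled circles for the 4 hypoxia samples and open squares for the 4 normoxia samples. Timp1, Timp2 and Timp3 sit at the top in both groups, and the levels of the members span more than 4 powers of 10.

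Summed over the members, TIMP transcripts made up 71.4 to 78.2% of the RPKM in the hypoxia samples and 76.0 to 81.5% in the normoxia samples, ranges that overlap. MMP transcripts made up 15.2 to 20.4% and 12.5 to 16.6%, and ADAMTS proteases 3.52 to 4.47% and 3.16 to 4.02%, so that these ranges also overlapped. ADAMTS-like proteins made up 2.99 to 3.77% in hypoxia and 2.93 to 3.52% in normoxia. Between samples of the same replicate number, the TIMP share rose in normoxia each time and the MMP share fell. For replicates 1 to 4, TIMP shares went from 78.2, 71.4, 76.3 and 75.2% in hypoxia to 81.5, 76.0, 78.5 and 76.7%. MMP shares went from 15.2, 20.4, 16.7 and 17.9% to 12.5, 16.6, 14.7 and 16.1%. A share also falls when the other sums rise. The summed MMP RPKM went from 459, 533, 445 and 473 to 417, 509, 456 and 475. It therefore fell in replicates 1 and 2 and rose in replicates 3 and 4. The summed TIMP RPKM rose each time, from 2353, 1865, 2038 and 1986 to 2726, 2335, 2433 and 2264. The ADAMTS and ADAMTS-like shares fell in replicates 1 to 3 and rose in replicate 4. These differences in share and in sum were not tested.

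Only 32 members had enough counts for a test (12 MMPs, 12 ADAMTS proteases, 4 ADAMTS-like proteins and all 4 TIMPs). Of the 18 below the filter, Mmp1b, Mmp7, Mmp20, Mmp21 and Adamts19 had 0 counts in every sample, which allows a level of up to 0.125 to 0.241 CPM per sample (3 counts, counting error only). The other 13 had at most 11 counts in any sample. They were the collagenase Mmp8, the gelatinase Mmp9, Mmp10, Mmp24, Mmp25, Mmp27, Adamts8, Adamts13, Adamts15, Adamts16, Adamts17, Adamts20 and Adamtsl2. Mmp9, which neutrophils and osteoclasts make in quantity, had 1 to 7 counts per sample. The neutrophil markers Elane, S100a9, Ly6g and Ngp had 0 counts throughout, and all 8 neutrophil markers together had 0.321 to 0.859 CPM in hypoxia and 0.216 to 0.794 in normoxia. Of the 6 osteoclast markers, summed at 127 to 135 CPM in hypoxia and 169 to 186 in normoxia, Ctsk made up nearly all, and Calcr was at 0. The 2 called markers of this list moved in opposite directions, as Ctsk rose by 0.46 and Acp5, at 1.34 ± 0.304 CPM in hypoxia and 0.535 ± 0.229 in normoxia, fell by 1.10 (limma adjusted p = 0.00012 and 0.0093).

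The members were then compared between oxygen levels with limma-trend on log2 CPM, each adjusted p being taken over the 14369 genes tested. A change is normoxia minus hypoxia on the log2 CPM scale. Of the 32 members, 7 rose in normoxia (Mmp3, Mmp12, Mmp19, Adamts5, Adamts12, Adamtsl3 and Timp3) and 4 fell (Mmp11, Mmp23, Adamts9 and Timp4). The 11 called members were 34.4% of those tested. Over all genes 34.6% were called, 18% as higher and 16.5% as lower (2592 and 2378 genes), so the share among the members was that of the background. The ranges of the groups were apart for 10 members, 7 of them higher and 3 lower in normoxia, against 32.6% of all genes, and 9 of these 10 were among the called. Changes were modest. The median change was 0.034 over the members and 0.005 over all genes, the median absolute changes were 0.29 and 0.24, and Timp4 alone was called with a change of at least 1. In bulk RNA, a change in the number of cells that express a gene and a change in its RNA per cell cannot be told apart.

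Hypoxia and normoxia samples of the same number varied together, and with the replicate number as a block 12 members were called higher and 7 lower, beside 46% of all genes called. The 11 calls above were all kept in direction. Added as higher were Mmp13, Mmp15, Mmp16, Timp1 and Timp2, and added as lower were Adamts2, Adamts4 and Adamtsl1. The normalisation bore on the balance of the calls. When counts were scaled by the library total alone, the median of all genes moved to 0.09, 11 members were called higher and 3 lower, and over all genes the split was 3611 higher against 1575 lower.

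**Figure D2:**
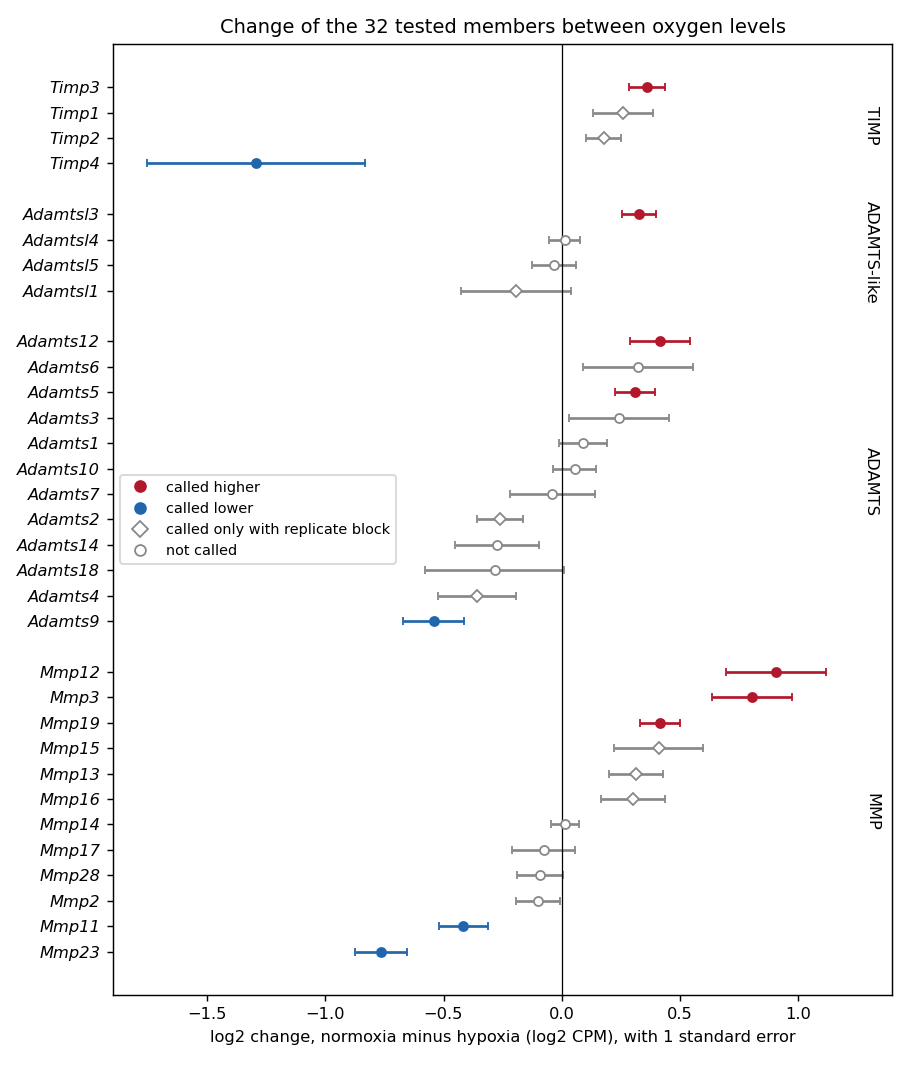
Change of each of the 32 tested members (x axis, normoxia minus hypoxia in log2 CPM, point with 1 standard error), grouped by family. Red points mark the 7 members called higher and blue points the 4 called lower in the main test. Open diamonds mark the 8 that the replicate block added to these, and open circles those not called in either.

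Stromelysins, the metalloelastase and the collagenases include neighbours of a gene cluster on chromosome 9 (GRCm38, 7272514 to 7699585), which holds 9 members in the order Mmp13, Mmp12, Mmp1b, Mmp3, Mmp10, Mmp8, Mmp27, Mmp20 and Mmp7. Only Mmp13, Mmp12 and Mmp3 of these had enough counts for the test. To show what their starts share, the RefSeq bases just before them are given for the plus strand of GRCm38.p6, at chr9:7272364-7272513 for Mmp13, chr9:7347224-7347373 for Mmp12 and chr9:7445672-7445821 for Mmp3, with the AP-1 letters TGANTCA in capitals. For Mmp12 this is the second start listed in RefSeq, and the window at the other start held no such match.
Mmp13: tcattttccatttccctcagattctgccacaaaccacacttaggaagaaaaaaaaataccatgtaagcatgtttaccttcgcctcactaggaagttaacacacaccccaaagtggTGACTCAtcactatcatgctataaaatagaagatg
Mmp12: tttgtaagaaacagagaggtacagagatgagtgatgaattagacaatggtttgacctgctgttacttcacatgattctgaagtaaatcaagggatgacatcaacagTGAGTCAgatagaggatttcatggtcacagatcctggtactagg
Mmp3: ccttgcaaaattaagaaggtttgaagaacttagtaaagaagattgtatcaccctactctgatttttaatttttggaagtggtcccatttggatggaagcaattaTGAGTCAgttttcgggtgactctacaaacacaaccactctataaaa

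The match began 35 bases before the start in Mmp13, 44 in Mmp12 and 46 in Mmp3. Windows of 300 bases (250 before the start and 50 after it) were found for 35 members, 38 windows in all. Letters matching TGANTCA on either strand stood in 7 of the 11 windows of the cluster and in 0 of the 27 windows of the other members, beside 7.81% of the 32851 windows of all genes. The core letters of the hypoxia response element, ACGTG or GCGTG on either strand, stood in 44.7% of the member windows and 43.8% of all windows. The TATA letters TATAAA stood in 7 of the 11 cluster windows and 8.32% of all. Such matches describe the letters alone.

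Mmp3 (stromelysin-1, chromosome 9, 7445822 to 7455975), which cuts proteoglycans and activates other MMPs, had 4.72, 5.86, 5.54 and 8.24 CPM in hypoxia replicates 1 to 4. In normoxia replicates 1 to 4 it had 8.54, 10.9, 12.4 and 10.9 CPM. Every normoxia sample was above every hypoxia sample, although hypoxia replicate 4 came close to normoxia replicate 1. The change was 0.81 (SE 0.17, limma adjusted p = 0.0034). Mmp12 (macrophage metalloelastase, chromosome 9, 7344381 to 7369499) had 1.96, 2.25, 2.19 and 3.08 CPM in hypoxia, from 28 to 47 counts. In normoxia it had 4.08, 3.24, 5.63 and 5.80 CPM, from 45 to 78 counts, and the groups did not overlap. Its change of 0.91 (SE 0.21, limma adjusted p = 0.0060) was the largest rise among the members.

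Since Mmp12 is a product of macrophages, the macrophage markers are given beside it. Their summed level was 514 to 1041 CPM in hypoxia and 607 to 1142 in normoxia. Of the 8 markers, Lyz2 rose by 0.56 and C1qa fell by 0.77 on the log2 CPM scale (limma adjusted p = 0.022 and 0.046), and the other 6, Adgre1 and Csf1r among them, had changes below 0 that did not pass. With the replicate block 4 markers were called lower and Lyz2 higher, Csf1r (-0.59, limma adjusted p = 6.7e-09), Itgam (-0.46, limma adjusted p = 0.0011) and Cd68 (-0.28, limma adjusted p = 0.0028) joining C1qa. Under a correction for transcript GC content and length without the block, C1qa did not pass (-0.50, limma adjusted p = 0.17). The part of macrophages in the Mmp12 difference was not tested.

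Mmp13 (collagenase-3, chromosome 9, 7272514 to 7283331), the main collagenase of rodent bone and cartilage, had 205, 238, 215 and 241 CPM in hypoxia. In normoxia it had 212, 302, 284 and 330 CPM, so normoxia replicate 1 lay within the hypoxia range and the other 3 lay above it. The change was 0.31 (SE 0.11, limma adjusted p = 0.051), and it passed with edgeR (adjusted p = 0.042) and DESeq2 (adjusted p = 0.026). With the replicate block the limma adjusted p was 8.8e-05. Under a correction for transcript GC content and length (the GC correction), however, the change was 0.12. Its limma adjusted p was then 0.46 without the block and 0.056 with it. Without normoxia replicate 1 the change was 0.43 (limma adjusted p = 0.0020).

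Mmp2 (gelatinase A, chromosome 8, 92827291 to 92853420) had 770, 920, 695 and 729 CPM in hypoxia and 699, 830, 694 and 678 CPM in normoxia. The groups overlapped almost fully, and replicate 2 was the highest in both. The change was -0.10 (SE 0.09, limma adjusted p = 0.45). Mmp14, its activator at the cell surface, had 383 ± 23.7 CPM in hypoxia and 386 ± 12.1 in normoxia, a change of 0.01 (SE 0.06). Of the other membrane-type MMPs, Mmp15 and Mmp16 had changes of 0.41 and 0.30 (limma adjusted p = 0.11 and 0.10, and 0.043 and 0.0095 with the block). Both also passed without hypoxia replicate 2 and with no block (0.57 and 0.42, limma adjusted p = 0.027 and 0.023). Mmp16 passed with scaling by library totals (0.39, limma adjusted p = 0.032). Under the GC correction Mmp15 passed without and with the block (0.59, limma adjusted p = 0.032 and 0.0043). Mmp16 did not (0.09, limma adjusted p = 0.61 and 0.39). Mmp17, a membrane-type MMP held by a lipid anchor, was at 7.22 ± 0.95 CPM in hypoxia and 6.81 ± 0.66 in normoxia.

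Mmp23, a protease bound to the membrane by its amino-terminal end (chromosome 4, 155650655 to 155653384), gave the smallest adjusted p of the members. It had 121, 136, 138 and 156 CPM in hypoxia and 63.9, 90.6, 81.5 and 89.5 CPM in normoxia. All 4 normoxia samples lay well below all 4 hypoxia samples, and the level fell by 0.76 (SE 0.11, limma adjusted p = 0.00036). Mmp11 (stromelysin-3, chromosome 10, 75923222 to 75936496), a stromal protease with little activity on the classic matrix proteins, had 30.8, 34.4, 36.1 and 36.4 CPM in hypoxia. In normoxia it had 20.9, 26.1, 27.7 and 28.9 CPM, without overlap. It fell by 0.42 (SE 0.10, limma adjusted p = 0.0083), which the GC correction moved to -0.25 with adjusted p = 0.054.

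Mmp19 (chromosome 10, 128790910 to 128800824), which cuts basement membrane proteins, had 45.1, 54.7, 40.7 and 47.6 CPM in hypoxia and 60.8, 66.4, 59.8 and 63.2 CPM in normoxia. The groups did not overlap, and the rise was 0.42 (SE 0.09, limma adjusted p = 0.0028). Exons of Mmp19 share 789 bases with Tmem198b on the opposite strand, which had 141 to 302 counts per sample. Whether the counting used strand is not given in the sources used here. Mmp28 (epilysin), the remaining tested MMP, was at 20.8 ± 2.46 CPM in hypoxia and 19.5 ± 1.23 in normoxia and was not called.

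**Figure D3:**
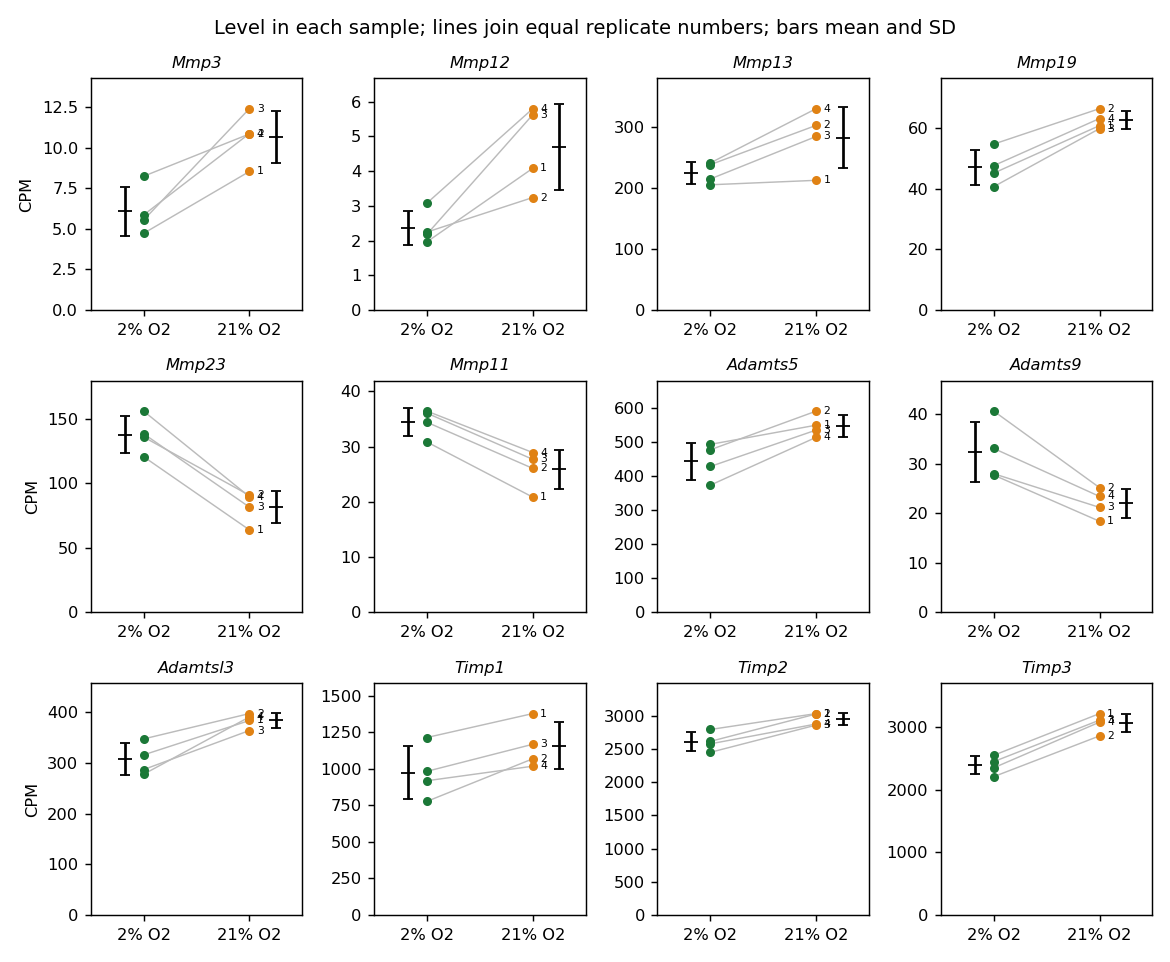
Level of 12 members in each sample (y axis, CPM from 0), hypoxia at 2% O2 in green and normoxia at 21% O2 in orange, with grey lines between samples of the same replicate number, the number beside each normoxia point, and black bars for mean and SD of 4 samples. Mmp23, Mmp11 and Adamts9 are lower in all 4 normoxia samples than in any hypoxia sample, and Mmp3, Mmp12, Mmp19, Adamts5, Adamtsl3, Timp2 and Timp3 are higher.

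Among the ADAMTS proteases that cut proteoglycans, Adamts5 and Adamts9 moved in opposite directions. Adamts5 (aggrecanase-2, chromosome 16, 85856173 to 85901828) had 494, 478, 429 and 374 CPM in hypoxia and 550, 591, 536 and 514 CPM in normoxia. All normoxia samples were above all hypoxia samples, and the rise was 0.31 (SE 0.09, limma adjusted p = 0.014). The call was lost without normoxia replicate 2 (0.26, limma adjusted p = 0.052) and under the GC correction (0.18, limma adjusted p = 0.084). Adamts9 (chromosome 6, 92772699 to 92943492), which cuts aggrecan and versican, had 27.8, 40.7, 28.0 and 33.1 CPM in hypoxia and 18.4, 25.2, 21.2 and 23.4 CPM in normoxia. It was lower in every normoxia sample than in any hypoxia sample and fell by 0.54 (SE 0.13, limma adjusted p = 0.0070).

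The other proteoglycan-cutting members were not called. Adamts1, whose gene lies 53059 bases from that of Adamts5, had 170 ± 24.2 CPM in hypoxia and 180 ± 20.1 in normoxia. Adamts4 (aggrecanase-1) had 9.38 ± 2.29 and 7.14 ± 0.785 CPM, a change of -0.36 with limma adjusted p = 0.11, or 0.034 with the replicate block. Without hypoxia replicate 3 the change in Adamts4 was -0.48 (limma adjusted p = 0.048). Of 5 chondrocyte markers, summed at 4905 to 6648 CPM in hypoxia and 3994 to 4773 in normoxia, most of the total was Comp, the gene of cartilage oligomeric matrix protein. Comp had 4446 ± 884 CPM in hypoxia and 3468 ± 416 in normoxia, a change of -0.35 (limma adjusted p = 0.060, and 3.5e-05 with the block). Under the GC correction the change in Comp was -0.14 (limma adjusted p = 0.45, and 0.028 with the block). Sox9 and Col2a1 fell by 0.58 and by 0.33 (limma adjusted p = 0.00071 and 0.023), and Col2a1 did not pass under the GC correction (-0.13, limma adjusted p = 0.42). Acan, the gene of aggrecan, was at 10.2 CPM in hypoxia and 11.2 in normoxia on average and was not called.

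The procollagen N-proteinases, which remove the amino-terminal propeptide of fibrillar collagens, did not pass the test. Adamts2 was lower in 4 of 4 pairs, at 178 ± 22.5 CPM in hypoxia and 148 ± 15.8 in normoxia. Its change of -0.26 had limma adjusted p = 0.054, and 0.00026 with the replicate block. It passed with DESeq2 (adjusted p = 0.033). Adamts14 and Adamts3 were far less abundant, with 3.57 ± 0.569 and 1.77 ± 0.271 CPM in hypoxia and 2.93 ± 0.516 and 2.16 ± 0.571 CPM in normoxia.

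Of the other ADAMTS proteases, Adamts12, which cuts cartilage oligomeric matrix protein, rose by 0.42 (SE 0.13, limma adjusted p = 0.023). Its hypoxia values were 39.3, 36.7, 30.6 and 24.4 CPM and its normoxia values 39.1, 43.1, 45.5 and 45.0 CPM, so normoxia replicate 1 stood just below hypoxia replicate 1. The call was lost without hypoxia replicate 3 or without normoxia replicate 2, 3 or 4, with limma adjusted p from 0.051 to 0.065. Adamts6, Adamts7, Adamts10 and Adamts18 were not called. Their changes were 0.32, -0.04, 0.06 and -0.28. Adamts10 passed only under block plus GC correction (0.22, limma adjusted p = 0.034), and Adamts18 had 8 to 28 counts per sample.

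Adamtsl3 (punctin-2, chromosome 7, 82335694 to 82614450), an ADAMTS-like protein of the matrix, had 316, 347, 287 and 278 CPM in hypoxia and 384, 397, 364 and 391 CPM in normoxia. The groups did not overlap, and the rise was 0.33 (SE 0.07, limma adjusted p = 0.0043). Adamtsl4, which binds fibrillin microfibrils, had 184 ± 11.04 CPM in hypoxia and 186 ± 12.5 in normoxia. Its change was 0.01, but 0.20 under the GC correction (limma adjusted p = 0.021, and 0.00042 with the block). Adamtsl5 was at 17.2 ± 0.989 and 16.8 ± 1.47 CPM. Adamtsl1 was at 61.4 ± 25.1 and 52.4 ± 15.5 CPM, with replicate 2 highest in both groups, and passed only with the block (-0.19, limma adjusted p = 0.56 without it and 0.026 with it).

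The inhibitors other than Timp4 were higher in normoxia in all 4 pairs. Timp3 (chromosome 10, 86300372 to 86349506), which binds matrix glycans and also inhibits aggrecanases and ADAM sheddases, had 2550, 2209, 2449 and 2350 CPM in hypoxia. In normoxia it had 3216, 2859, 3112 and 3079 CPM, each above every hypoxia value. The rise was 0.36 (SE 0.08, limma adjusted p = 0.0036), and its 4 pairwise differences lay between 0.34 and 0.39. A core of the hypoxia response element stands 69 bases before its RefSeq start, which does not set Timp3 apart. Letters of this core also stood in the windows of Timp1 and Timp2, though not Timp4, and in 43.8% of all windows. Among tested members they stood in 2 of 6 windows of those called higher and 1 of 5 of those called lower. They stood in 9 of 13 windows of tested members not called. Bases upstream of Timp3 are shown with GCGTG in capitals (GRCm38.p6, chr10:86300262-86300371, plus strand). The stretch was cut just before the annotated gene start at 86300372. That start lies upstream of the RefSeq start, so the last base shown is not next to the RefSeq start.
Timp3: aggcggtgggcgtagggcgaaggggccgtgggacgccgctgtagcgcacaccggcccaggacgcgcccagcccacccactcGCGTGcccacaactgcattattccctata

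Timp2 (chromosome 11, 118301069 to 118355740), which blocks MMPs and also bridges Mmp14 to the proform of Mmp2, had 2618, 2797, 2453 and 2581 CPM in hypoxia and 3031, 3037, 2864 and 2880 CPM in normoxia. The groups did not overlap, yet the change of 0.18 (SE 0.07) had limma adjusted p = 0.079, and 0.0085 with the replicate block. It passed with edgeR (adjusted p = 0.049), DESeq2 (adjusted p = 0.021) and limma-voom (adjusted p = 0.036), and under the GC correction (0.25, limma adjusted p = 0.022). Without hypoxia replicate 2 it was 0.21 with limma adjusted p = 0.041. Timp1 (chromosome X, 20870166 to 20874735), a soluble inhibitor of most MMPs, had 1215, 778, 983 and 919 CPM in hypoxia and 1379, 1069, 1169 and 1018 CPM in normoxia. The groups overlapped because replicate 1 was the highest in each, and the change was 0.26 (SE 0.13, limma adjusted p = 0.13). Within pairs the differences were 0.15 to 0.46, and with the block limma adjusted p = 0.00036. Under the GC correction the change was 0.42 (limma adjusted p = 0.021, and 3.8e-09 with the block). Without hypoxia replicate 1 the change was 0.37 (limma adjusted p = 0.015).

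Timp4 (chromosome 6, 115241892 to 115252205) was near the limit of detection, with 5, 18, 11 and 20 counts in hypoxia and 1, 7, 2 and 4 counts in normoxia. In CPM these were 0.209, 1.44, 0.859 and 1.54 against 0.0743, 0.504, 0.144 and 0.301. Normoxia replicates 2 and 4 lay above hypoxia replicate 1, which was the lowest of its group although the deepest library. The fitted fall was by 1.29 (SE 0.46, limma adjusted p = 0.047). It did not pass with edgeR (adjusted p = 0.052) or limma-voom (adjusted p = 0.17), nor with hypoxia replicate 2, 3 or 4 or normoxia replicate 1, 3 or 4 left out (limma adjusted p = 0.067 to 0.14). The call was also lost with a prior count of 0.5, without the filter and with scaling by library totals (limma adjusted p = 0.054, 0.066 and 0.054).

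The changes of the members went with the base composition of their transcripts. GC content of the longest transcript was 40.3 to 49.2% in the 7 members called higher (median 46.8%) and 47.7 to 58.6% in the 4 called lower (median 53.2%). Members not called spanned 41.7 to 60.1%. Spearman's rho between change and GC content was -0.51 over the 32 members and -0.39 over 14353 genes, as a description across genes that share libraries. Under block plus GC correction, 12 members were called higher and 5 lower, beside 43.2% of all genes, and the 11 calls were all kept. With the GC correction and no block, Mmp11 and Adamts5 were lost and 10 members were called higher and 3 lower. Over all genes 4238 of 14353 were called in that setting, 2173 as higher and 2065 as lower. The part of base composition in these differences was not tested.

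**Figure D4:**
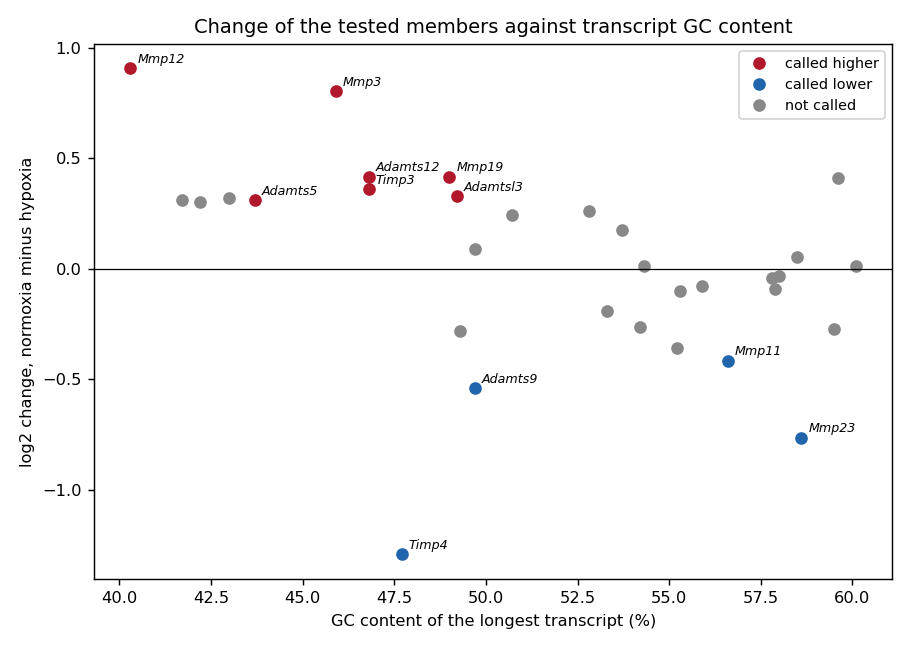
Change of the 32 tested members (y axis, normoxia minus hypoxia in log2 CPM) against GC content of the longest transcript (x axis, percent), with called members named. The 7 members called higher all lie below 50% GC, whereas grey points without a call spread over the whole range.

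Genes that act with these proteases were listed by role (45 genes). Of the 36 tested, 13 rose and 8 fell, beside 34.6% of all genes called in either direction. The count of those that fell was 5 without hypoxia replicate 3, 5 with scaling by library totals and 4 with the GC correction. The replicate block gave 17 higher and 10 lower, beside 46% of all genes called. The list was chosen with earlier results of these data known, so these counts describe the list alone. In the plasmin system, which activates several proMMPs at the cell surface, Plau, Plaur, Plat and Serpine2 rose with no overlap between groups. The urokinase gene Plau went from 82.5 ± 4.19 to 122 ± 20.3 CPM (change 0.55, limma adjusted p = 0.0014) and its receptor Plaur from 34.1 ± 10.7 to 57.4 ± 11.1 CPM (0.78, limma adjusted p = 0.0064). Serpine2, an inhibitor of plasminogen activators, rose by 0.67 and Plat, the tissue-type activator, by 0.37 (limma adjusted p = 0.00019 and 0.0040). Plasminogen itself (Plg) had 0 counts in every sample, and Serpinb2 and Serpinf2 had at most 5.

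Of the 3 other MMP inhibitors tested, Reck, a membrane-anchored inhibitor, had 112 ± 16.2 CPM in hypoxia and 106 ± 12.3 in normoxia and was not called, nor was Spock2. Under block plus GC correction Reck passed as lower (-0.14, limma adjusted p = 0.017). Tfpi2, a secreted protease inhibitor, fell by 1.87 (limma adjusted p = 0.00038) at 4 to 33 counts per sample. The endocytic receptor Lrp1, which clears protease and inhibitor complexes, fell by 0.56 (2209 ± 323 to 1491 ± 136 CPM, limma adjusted p = 0.0017), or by 0.32 under the GC correction. Bsg, an inducer of MMPs, fell by 0.18 (limma adjusted p = 0.038), but under the GC correction its change turned to 0.03 (limma adjusted p = 0.71, and 0.56 with the block).

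Among 8 ADAM sheddases, Adam9 and Adam10 rose by 0.44 and 0.24 (limma adjusted p = 0.00064 and 0.0042). Adam15 fell by 0.29 and Adam33 fell by 1.39 (limma adjusted p = 0.0036 and 0.0035). Of the 4 convertases, which remove the propeptide of membrane-type MMPs and ADAMTS proteases, Furin fell by 0.23 and Pcsk5 and Pcsk7 rose by 0.53 and 0.30 (limma adjusted p = 0.019, 0.030 and 0.033). Of 4 tested genes of procollagen C-propeptide removal, Tll1 rose by 0.71 and the enhancer Pcolce fell by 0.27 (limma adjusted p = 0.016 and 0.0055). Bmp1 and Pcolce2 had changes of 0.16 and 0.27 and were not called (limma adjusted p = 0.065 and 0.062). Both passed as higher with the block (limma adjusted p = 0.019 and 0.015). Under the GC correction without the block, Bmp1 passed (0.29, limma adjusted p = 0.0024) and Pcolce2 did not (0.15, limma adjusted p = 0.34). Of 5 genes of cathepsins and cystatin C, Ctsk and Ctsb rose by 0.46 and 0.39 (limma adjusted p = 0.00012 and 0.0037). Of 4 serine proteases of the pericellular space, Htra1 rose by 0.22 and Htra3 fell by 0.51 (limma adjusted p = 0.030 and 0.022). Several of these calls were lost under the GC correction. Adam10 had a change of 0.03 (limma adjusted p = 0.66, and 0.59 with the block) and Furin one of -0.11 (limma adjusted p = 0.20, and 0.070 with the block). Adam15, Pcolce and Htra3, at -0.14, -0.15 and -0.30, did not pass without the block (limma adjusted p = 0.052, 0.058 and 0.11) and passed with it. Thsd4, an ADAMTS-like protein with its own name, was not called.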

How the data were processed

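Counts of reads per Ensembl gene were deposited by the authors as whole numbers with no normalisation, from NEBNext Ultra II libraries sequenced single-end and processed with zUMIs, STAR, samtools and featureCounts on mm10. The strand setting is not given in the sources used here. Symbols, positions and lengths came from GENCODE M21 (GRCm38). Genes were filtered with filterByExpr (minimum count 5), scaled by TMM (the trimmed mean of M values) and tested with limma-trend (limma 3.58.1, edgeR 4.0.16, R 4.3.3; prior count 3, Benjamini-Hochberg threshold 0.05). CPM and RPKM used TMM-scaled totals. RPKM used the union of exons. Groups and replicate numbers came from the labels. The alternatives were edgeR's quasi-likelihood test, DESeq2 1.42.0, voom, other scalings, filters and prior counts, thinning to equal depth, a GC content and length correction (splines of 5 degrees of freedom), the replicate block and leaving out each sample. The study divided each sorted population between oxygen levels, and deviations from the group means correlated at 0.47, 0.28, 0.25 and 0.17 for pairs 1 to 4, so the numbers were taken to pair the samples.

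Every member was named. Per-sample values were given for called members whose groups were apart and whose log2 CPM averaged 3 or more (8 genes), for the TIMPs and for the 5 highest by RPKM. Those of Mmp12 and Adamts12 and the printed sequences were chosen after their values were seen. Related genes were named if called with a change of at least 0.5, and others were chosen likewise afterwards. The members and all lists were chosen with earlier results of these data known. The procedure was tested on simulated data. The simulated counts held no effect shared by replicate number and no trend with GC content. They therefore cannot show how the block or the GC correction behaves where such effects exist. The study calls the samples independent biological replicates. Intervals and floors cover counting error only. Some items of the lists are not reported here.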

Additional observations from a re-analysis of the deposited data

Results flagged for a closer look

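Mmp2 in normoxia replicate 2 stood apart from the other 3 normoxia samples. Its gap to the nearest sample was 0.849 of the range of the group on the log2 CPM scale. The total count of hypoxia replicate 1 stood apart likewise, its gap being 0.976 of the range of the hypoxia group. Of 66 sets of 4 samples searched in this way, 3.3 would be expected by chance and 2 were found.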

How the results depend on the processing

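Mmp3, Mmp12, Mmp19, Mmp23, Adamts9, Adamtsl3 and Timp3 kept their direction and their call under all 20 alternatives. Members called higher were 7, but 11 with scaling by library totals and 12 with the replicate block, alone or with the GC and length correction. Members called lower were 4, but 7 with the block. The block changed the calls named in the report and, among the members, no other. Related genes called lower were 8, but 5 with scaling by totals and 4 with the GC and length correction. With each sample left out in turn, members called higher ranged from 5 to 10 and lower from 3 to 5, and related genes called lower from 5 (without hypoxia replicate 3) to 9. The block moved the counts of related genes from 13 to 17 higher and from 8 to 10 lower. Timp4 was not tested with a minimum count of 20. Signs turned only for members that were not called. Adamts7 had a change of 0.0447 with scaling by totals and 0.111 with the GC and length correction, with or without the block. Adamtsl5 had 0.0552 and 0.1209 under the same settings, and Mmp17 had 0.01 and 0.0478. With that correction Mmp2 had 0.0171 and Mmp28 had 0.0661. With each sample left out in turn, Adamts7 ranged from -0.1548 to 0.0662, Adamtsl1 from -0.3931 to 0.0597, Adamtsl4 from -0.0248 to 0.0476, Adamtsl5 from -0.0757 to 0.0199 and Mmp14 from -0.0164 to 0.0506. The causes were not tested.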
